A study of Mus musculus with 4 samples.

Results

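Transfer RNA (tRNA) genes were examined as sites of Flag chromatin immunoprecipitation signal in mouse lineage-negative bone-marrow cells. The members are all genes of the biotype tRNA on chromosomes 1 to 19 in the RefSeq gene table of GRCm38.p6, the assembly behind mm10, and they numbered 386 of 46709 genes of any kind on these chromosomes. The table listed 391 such genes, and 5 of them lay on scaffolds outside the assembled chromosomes and were left out. The cells, marrow cells depleted of those with mature-lineage surface markers, came from C57BL/6 mice 8 weeks of age with the genotype 3xFlag-Nynrin-Tg. The 2 Flag ChIP libraries, replicates 1 and 2, each came with a peak list, and the 2 input libraries, of the same genotype, were not analysed here. Every library carried the transgene, the promoter that drives it is not given in the sources used here, and no untagged cells or control antibody entered. No label ties the replicates to different animals, and their agreement may be technical. Peak lists do not measure expression, so the labelled cell type could not be checked against its markers.

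tRNAs carry amino acids to the ribosome, and each reads its codons through an anticodon. RNA polymerase III transcribes tRNA genes from promoters that lie inside the gene. The factor TFIIIC recognises the internal A box and B box, and it recruits TFIIIB and the polymerase. Transcription ends at a short run of T bases. Many tRNA genes sit in arrays, in the mouse above all among the histone genes of chromosome 13, and near-identical copies are common. Gene symbols hold the amino acid in one-letter code and the anticodon, so n-TRtcg5 is an arginine tRNA gene with the anticodon TCG.

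The gene table gave bounds without strand, and sequence was at hand for 4 tRNA genes that lie whole inside a RefSeq promoter window of another gene (GRCm38.p6). They are shown because they hold the internal promoter that marks this gene class, and because 3 of them had a Flag summit in both replicates and the last had none. Each is written 5′ to 3′ on the strand that holds the better B box match. Capitals mark first the A box consensus and then the B box.
n-TRtcg5: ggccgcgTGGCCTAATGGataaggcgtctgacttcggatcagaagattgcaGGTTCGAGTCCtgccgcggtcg
n-TTagt9: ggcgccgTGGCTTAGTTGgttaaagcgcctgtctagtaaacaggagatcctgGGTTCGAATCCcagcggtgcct
n-TVcac9: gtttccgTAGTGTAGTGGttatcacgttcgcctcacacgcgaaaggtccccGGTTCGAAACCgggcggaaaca
n-TAagc16: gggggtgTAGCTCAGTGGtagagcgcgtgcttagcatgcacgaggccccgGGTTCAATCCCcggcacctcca

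The arginine gene n-TRtcg5 lies at chr7:79466419-79466491 on the plus strand, in the promoter window of Polg, the gene for the mitochondrial DNA polymerase. The threonine gene n-TTagt9 lies at chr7:35234770-35234843 on the minus strand. Both n-TRtcg5 and n-TTagt9 lie within 2000 bp of a protein-coding gene end, to which their summits can belong. The valine gene n-TVcac9 lies at chr13:23446142-23446214 on the minus strand, and the alanine gene n-TAagc16 at chr13:21222586-21222657 on the plus strand. All 4 sequences held the A box consensus from base 8. The B box consensus used had 11 bases and left its eighth base free. Against it n-TRtcg5 and n-TTagt9 had 0 mismatches, n-TVcac9 had 1 and n-TAagc16, the gene without a summit, had 2. Up to 3 mismatches were accepted in these genes, whereas the plan had set at most 1. A run of at least 4 T bases followed within 20 bases of the gene in n-TRtcg5, n-TVcac9 and n-TAagc16, and for n-TTagt9 only 5 following bases were in the window. The exact B box, on either strand, was held by 15 of 32851 promoter windows of 300 bp (0.0457%), of which 4 touched a tRNA gene, whereas 34.4% of windows held the A box consensus. The Flag summits of n-TRtcg5 lay 224 bp upstream of its first base in replicate 1 and 102 bp upstream in replicate 2, and n-TAagc16 was 21989 and 11580 bp from the nearest summit. With 4 sequences nothing is drawn from these matches about calls.

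Of the 386 tRNA genes, 161 (41.7%) had a peak summit within 1000 bp of their bounds in replicate 1 and 183 (47.4%) in replicate 2. A summit was present in both replicates at 152 genes (39.4%), which are termed called genes. Among all genes other than tRNA genes the same rule called 22.4% in replicate 1, 32.3% in replicate 2 and 21.9% in both. Only 9 tRNA genes had a summit in replicate 1 alone and 31 in replicate 2 alone, and 194 had none in either. A peak says that a site passed the authors' peak caller. A strong signal in a part of the cells and a weak signal in all of them cannot be told apart.

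A summit near a protein-coding gene end can belong to that end, so tRNA genes were divided by distance. Of the 321 tRNA genes with no protein-coding gene end inside 2000 bp, 112 (34.9%) had a summit in replicate 1, 128 (39.9%) in replicate 2 and 104 (32.4%) in both. This distance was to protein-coding ends alone, and a summit can also belong to another kind of gene. Of the 250 distant tRNA genes also over 2000 bp from the end of every gene other than tRNA genes, 70 were called. Of the 65 within 2000 bp of a protein-coding end, 48 (73.8%) were called in both. By the same window around either end, 34.4% of protein-coding genes were called in replicate 1, 47.6% in replicate 2 and 33.7% in both. The share of distant tRNA genes called was thus near that of protein-coding genes called at either end. The units differ, because a protein-coding gene had a window at each end. Of all other small RNA genes (snRNA, snoRNA, miRNA and rRNA), 4.59% had a summit in replicate 1, 6.89% in replicate 2 and 4.06% in both. Those at the same distance as the distant tRNA genes were called at 46 of 2933 (1.57%), with 1.84% in replicate 1 and 3.2% in replicate 2. Long noncoding RNA genes at that distance, which are much longer, were called at 496 of 9202 (5.39%). Small RNA classes include many degenerate copies, and no test between classes was made.

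**Figure D1:**
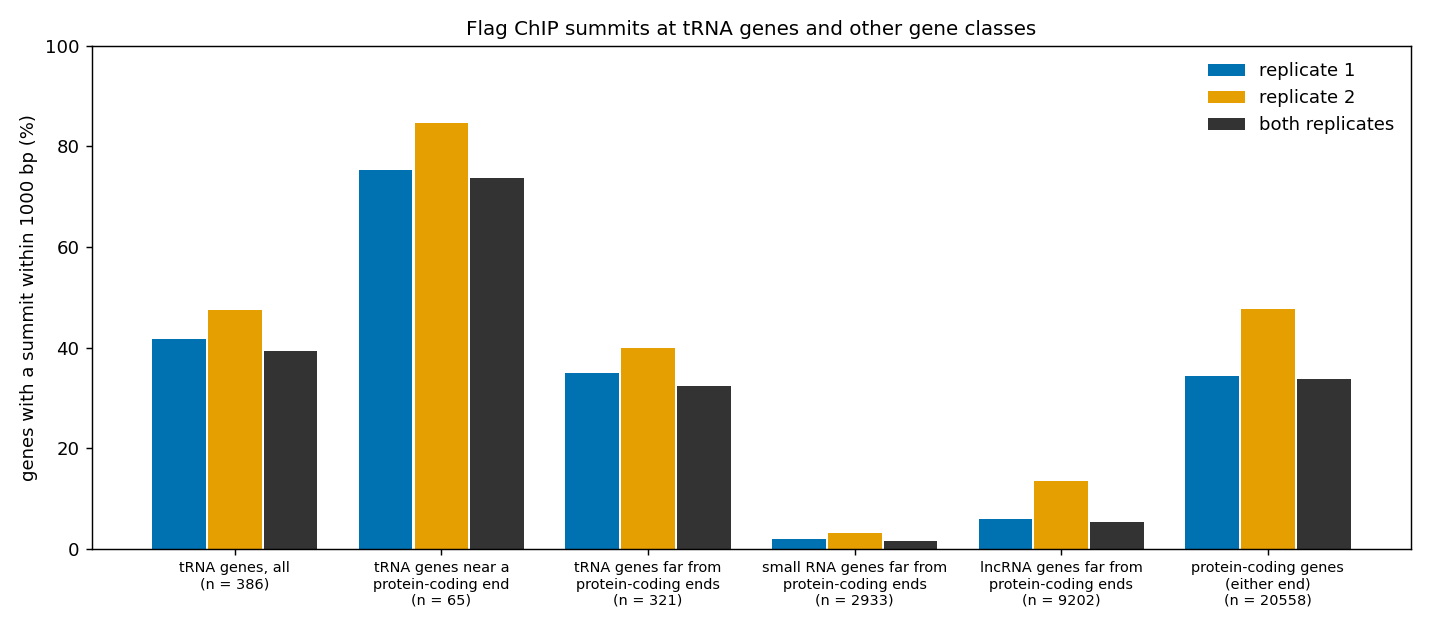
Percent of genes with a Flag ChIP summit within 1000 bp (y axis) by gene class (x axis) for replicate 1, replicate 2 and both replicates; far and near mean over and within 2000 bp of a protein-coding gene end. tRNA genes far from protein-coding ends were called in both replicates at 32.4%, other small RNA genes at 1.57%.

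The 152 called genes rest on fewer peaks, because neighbouring tRNA genes share them. Replicate 1 had 113 distinct peaks with a summit within 1000 bp of a tRNA gene and replicate 2 had 130. In replicate 1, 70 of these peaks served 1 gene each and 5 served 4 genes each, and in replicate 2 these numbers were 87 and 6. The peaks made up 0.895% of the 12627 replicate 1 peaks and 0.509% of the 25539 replicate 2 peaks on chromosomes 1 to 19.

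The 12 strongest distant loci were ranked by the lower of their 2 percentile ranks by fold enrichment, a ratio that the authors' peak caller gave each peak. The first was a chromosome 3 peak shared by the histidine gene n-THgtg8 (chr3:96500366-96500437), the glycine gene n-TGtcc7 and the glutamate gene n-TEctc13. Its fold enrichment was 7.67 in replicate 1 and 10.6 in replicate 2, with −log10 q of 17.0 and 27.2, and the nearest protein-coding end, that of Hjv, was 24726 bp from n-THgtg8. Both peaks were wide, at 2703 and 3381 bp. The second was at the glycine gene n-TGtcc2 (chr1:171037997-171038068) with the leucine gene n-TLcag3, at 6.45 and 10.9. The histidine gene n-THgtg4 (chr2:122375494-122375565), the only tRNA gene within 1000 bp of both its summits, had 7.77 and 9.06. Its replicate 1 summit fell inside the gene and its replicate 2 summit 11 bp outside. The gene lies 661 bp from an end of Gm39918, which is not listed as protein-coding.

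A chromosome 11 peak at the valine gene n-TVaac7 (chr11:48856637-48856709), shared with the leucine gene n-TLaag6 and the proline gene n-TPtgg4, had fold enrichments of 6.13 in replicate 1 and 9.03 in replicate 2. The adjacent leucine genes n-TLcag4 and n-TLcag5 on chromosome 8 had 5.91 and 12.5. Leucine genes with no peak sharing followed, n-TLtaa3 on chromosome 10 with 6.94 and 8.50, and n-TLtag1 on chromosome 7 with 6.64 and 8.50. Of the 104 distant called genes 15 were leucine genes, as were 22 of the 321 distant genes. The valine gene n-TVcac9, whose sequence is given above, shared its peak with the arginine gene n-TRacg5 and had 7.78 and 8.50. The replicate 1 summit lay 42 bp downstream of the first base of n-TVcac9, inside it, and the replicate 2 summit 537 bp upstream. This gene lies in the promoter window of Gm46404, to which the summits can also belong.

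The glutamate gene n-TEctc10 on chromosome 11, with the leucine gene n-TLcaa3, had fold enrichments of 5.76 in replicate 1 and 9.30 in replicate 2. The glycine gene n-TGgcc6 on chromosome 13, in the region of the replication-dependent histone genes, shared its peak with n-TMcat6 and n-TStga1 and had 5.56 and 10.1. A single peak of 1472 bp in replicate 1 and 3356 bp in replicate 2 served n-TDgtc9, n-TGtcc6, n-TPcgg3 and n-TWcca7 on chromosome 11, for aspartate, glycine, proline and tryptophan, at 7.38 and 7.82. The glutamine gene n-TQttg6, also on chromosome 11, closed the group at 5.34 and 9.18. In all 12 loci the lower percentile rank was at least 82.7, a level that the ranking itself selects.

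Among tRNA genes within 2000 bp of a protein-coding gene end, the peak cannot be given to either gene. The highest-ranked was the serine gene n-TSgct7 (chr2:119046750-119046831), 288 bp from the kinetochore gene Knl1, at 8.10 in replicate 1 and 12.2 in replicate 2. The summits, at 119047116 in replicate 1 and 119047052 in replicate 2, lay nearer the Knl1 end at 119047119 than the tRNA gene. The isoleucine gene n-TIaat16 near Plekhg2 had 7.5 and 11.3, and the arginine gene n-TRacg2 near Sacm1l, a phosphoinositide phosphatase gene, had 9.66 and 10.1. The tryptophan gene n-TWcca2 with n-TDgtc16 lay at the lamina-associated gene Tmpo, at 6.25 and 13.8. The glycine gene n-TGccc4 was 240 bp from Tia1, an RNA-binding protein gene (8.24 and 9.23), and the serine gene n-TStga3 was 541 bp from the catenin gene Ctnna3 (8.98 and 9.17). The asparagine gene n-TNgtt7 and the phenylalanine gene n-TFgaa3 lay within 100 bp of an end of Ndufs7, a respiratory complex I subunit gene (6.13 and 11.7), with the replicate 1 summit 3 bp and the replicate 2 summit 157 bp from n-TNgtt7. The methionine gene n-TMcat9 was 625 bp from the histone gene H4c8 (9.61 and 8.29). Both summits lay inside H4c8, 662 and 641 bp from n-TMcat9. At n-TWcca2 and n-TGccc4 the summits also lay nearer the named protein-coding end than the tRNA gene. At n-TRacg2, n-TStga3 and n-TNgtt7 they lay nearer the tRNA gene, and at n-TIaat16 the replicates differed. The highest-ranked genes of other amino acids were n-TQctg9 for glutamine, 290 bp from Rab11a (7.03 and 8.03), n-TAagc15 for alanine and n-TYgta9 for tyrosine, which share a peak at Agbl5 (5.57 and 9.58), n-TKctt17 for lysine, 91 bp from Psma3 (5.14 and 8.31), and the distant n-TTtgt1 for threonine (5.11 and 8.50).

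The overlap bears on protein-coding genes as well. Of the 6931 protein-coding genes called in both replicates, 27 (0.39%) would lose it in at least 1 replicate without the peaks that also lie within 1000 bp of a tRNA gene. They include Ndufs7, the proteasome subunit gene Psma3 beside the lysine gene n-TKctt17, the methyltransferase gene Prmt5, and Polr3e, which encodes a subunit of RNA polymerase III itself.

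Where summits fell relative to tRNA genes was measured next. Each peak was counted once, at its nearest tRNA gene. For all tRNA genes the median distance was 123 bp in replicate 1 (113 peaks) and 114.5 bp in replicate 2 (130 peaks), with 14 and 16 summits inside a gene. For distant tRNA genes the median was 110 bp in replicate 1 and 99 bp in replicate 2. Within 3000 bp of a distant tRNA gene, 75 of 81 summits in replicate 1 and 91 of 108 in replicate 2 lay within 1000 bp, and 62 and 74 lay within 300 bp. Around other small RNA genes at the same distance from protein-coding genes, 57 of 150 summits in replicate 1 and 94 of 278 in replicate 2 lay within 1000 bp, with medians of 337 and 358 bp. Around protein-coding gene ends the medians over summits within 1000 bp were 122.5 and 130 bp.

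**Figure D2:**
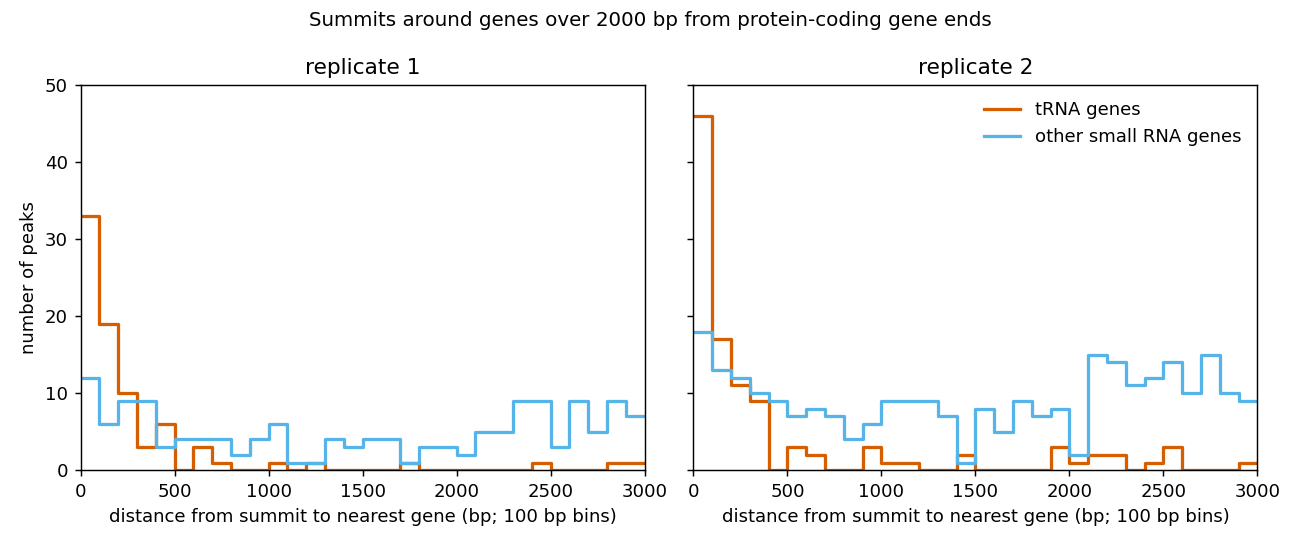
Number of peaks (y axis) by distance from the summit to the nearest gene in 100 bp bins (x axis), for tRNA genes and other small RNA genes over 2000 bp from protein-coding gene ends. In the first bin tRNA genes had 33 peaks in replicate 1 and 46 in replicate 2, and beyond 500 bp no bin held more than 3.

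The tRNA genes closest to the 1000 bp limit show what it decides. In replicate 1 the gene inside the limit that lay farthest from its summit was n-TKctt16 (993 bp). The nearest gene outside the limit was n-TIaat4 (1167 bp). In replicate 2 these were n-TSgct8 (963 bp) and n-TVaac8 (1001 bp). For the distance to protein-coding ends, n-TWcca6 lay just inside at 1919 bp and n-THgtg2 just outside at 2184 bp. Most genes with no call were far from any peak. The 194 genes called in neither replicate were a median of 59564.5 bp from the nearest summit in replicate 1 and 33809.5 bp in replicate 2, and 160 and 141 of them were more than 10000 bp away.

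Peaks at tRNA genes ranked above the middle of both lists. Their median fold enrichment was 4.65 in replicate 1, at the 69th percentile, against 4.04 for all peaks and 4.18 for peaks at protein-coding gene ends. In replicate 2 it was 7.17, at the 80.5th percentile, against 4.66 for all peaks and 6.62 at protein-coding ends. Peaks at distant tRNA genes had medians of 4.52 in replicate 1 and 6.11 in replicate 2, the second below that of protein-coding ends. In the top 25% of their list were 46 of the 113 tRNA peaks in replicate 1 and 78 of the 130 in replicate 2. The tRNA peaks were also wide, with a median of 877 bp in replicate 1 and 1351 bp in replicate 2, against 640 and 1018 bp at protein-coding ends and 524 and 621 bp over all peaks.

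Positions were compared between the 2 lists. Of the tRNA peaks, 107 (94.7%) in replicate 1 and 100 (76.9%) in replicate 2 overlapped a peak of the other list. An overlap of 1 bp was enough, and over all peaks the shares were 89.2% and 42%. The tRNA peaks were stronger and wider than all peaks, and no share matched for strength or width was computed. At 150 of the 152 called genes the strongest peaks of the 2 replicates overlapped, which gave 100 distinct pairs. A called gene already has a summit within 1000 bp in both lists, so much of this overlap is built in. Summits of the 100 pairs, kept because they overlap, lay a median of 130.5 bp apart. The order of strength was shared only weakly. Across the 100 pairs, which are sites and not replicates, Spearman's rho between the fold enrichments was 0.26, and the points share 2 libraries of unknown depth. Among peaks more than 2000 bp from protein-coding gene ends that had a partner, 67 of 4254 in replicate 1 (1.57%) and 64 of 4116 in replicate 2 (1.55%) were at tRNA genes.

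**Figure D3:**
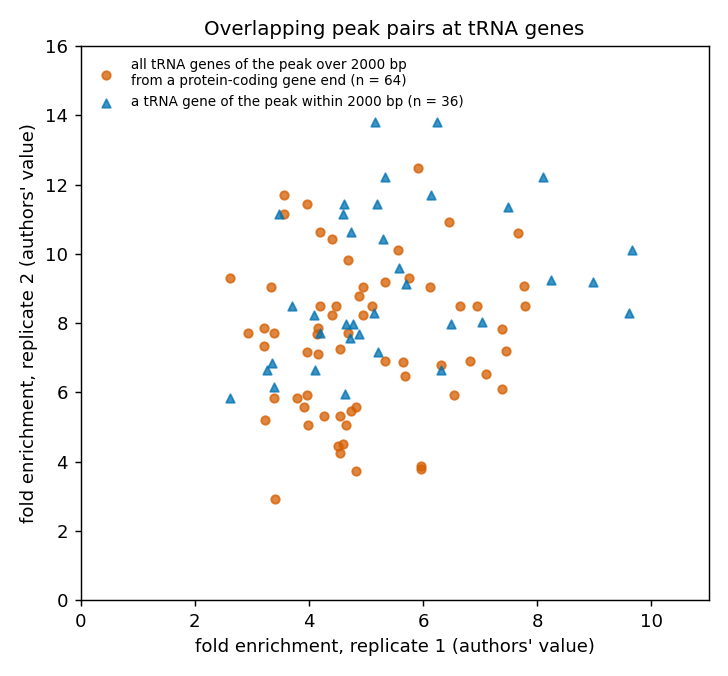
Authors' fold enrichment in replicate 1 (x axis) and replicate 2 (y axis) for the 100 overlapping peak pairs at tRNA genes, marked by whether all tRNA genes of the peak were over 2000 bp from a protein-coding gene end (64 pairs) or not (36 pairs). The points scatter widely, with Spearman's rho at 0.26.

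Called genes were spread over the whole set of amino acids. All 20 amino acids had at least 1 called gene, and all 20 still had one among distant genes, cysteine by n-TCgca52 alone, which is near a gene listed as lncRNA. Of the 48 anticodon species named in the table, 43 had a called gene and 39 had a distant one. The 5 without were glycine ACC, histidine ATG, isoleucine TAT and serine GGA, with 1 gene each, and lysine TTT, with 2. The highest shares were those of phenylalanine (5 of 7), arginine (16 of 23, 69.6%) and leucine (17 of 25, 68%). For arginine, 8 of 15 distant genes and 8 of 8 near genes were called, and for leucine 15 of 22 and 2 of 3. All 5 leucine AAG genes, all 3 serine CGA genes and both valine TAC genes were called. Both valine TAC genes lie in 1 cluster, which had 1 assigned peak in replicate 1. Of the 3 serine CGA genes 2 were near a protein-coding end, as was 1 of the 5 leucine AAG genes. Tyrosine genes, which are long because they carry introns (86 to 93 bp), were called at 5 of 10.

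Lower shares were seen for lysine (5 of 25, 20%), glutamine (4 of 15, 26.7%) and valine (6 of 21, 28.6%). With a window of 3000 bp, lysine had 10 called and glutamine 8 of 15, so the low place of glutamine depends on the window. The lowest was that of cysteine, with 3 of 57 genes (5.26%). Its strongest called gene was n-TCgca52 (chr17:71599271-71599342), with fold enrichments of 4.41 in replicate 1 and 8.24 in replicate 2 and summits 463 and 542 bp away. It lies 510 bp from Trmt61b, a tRNA methyltransferase gene that the table lists as lncRNA. Outside cysteine, 149 of 329 tRNA genes (45.3%) were called, and 103 of 269 distant ones (38.3%). Isotype groups share sequence and some share clusters, so the shares are given without a test.

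**Figure D4:**
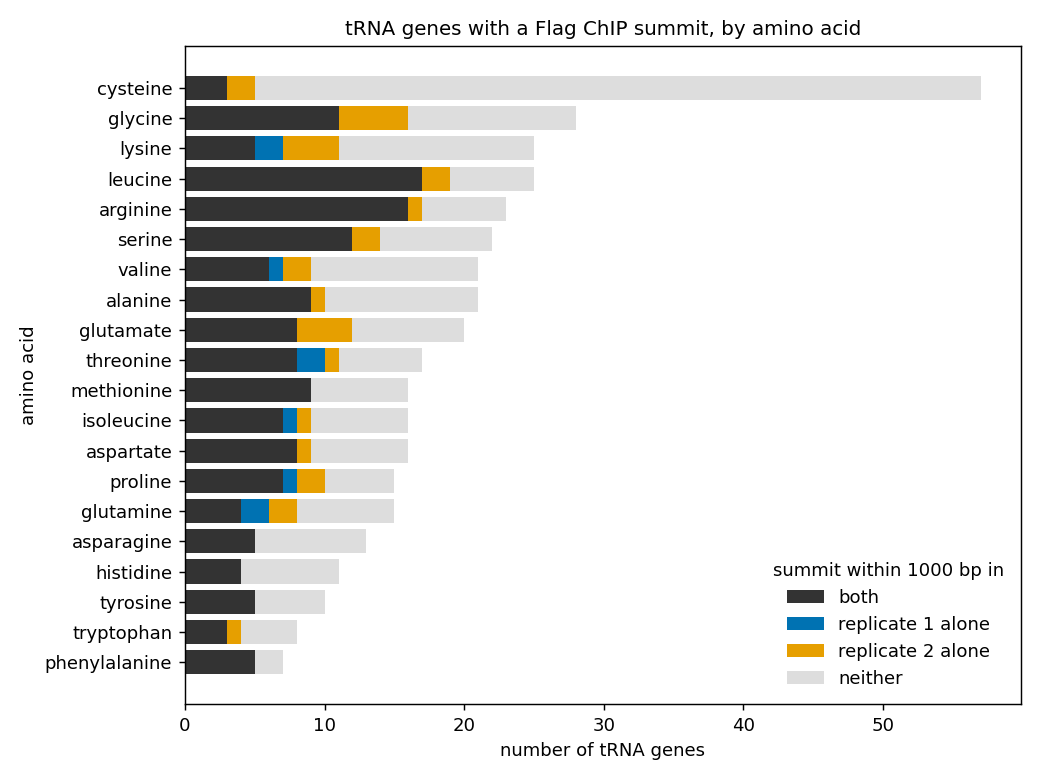
Number of tRNA genes per amino acid (x axis, amino acids on the y axis), divided into genes with a summit within 1000 bp in both replicates, in replicate 1 alone, in replicate 2 alone and in neither. Every amino acid has called genes, and cysteine has 52 of its 57 genes in neither.

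With tRNA genes joined into clusters at gaps of at most 10000 bp, the 386 genes formed 161 clusters, of which 100 held a single gene. At least 1 called gene was present in 75 clusters (46.6%). Of the 61 clusters with several genes, all members were called in 19, some in 15 and none in 27. Of distant genes, 24.3% of those standing alone were called, 40.8% of those in clusters of 2 to 4 and 32.2% of those in clusters of 5 or more. The last share is over 171 genes, among them chromosome 6 cysteine clusters of 22, 10 and 9 genes with none called. Genes of a cluster can also share a peak. The largest cluster, 22 cysteine genes at chr6:48244316-48317586, had none called. Of the 15-gene clusters, that at chr13:21907111-21940995 had 3 called and that at chr1:171064164-171081946 had none. A cluster of 14 genes at chr13:23425646-23453514 had 7 called, and the clusters of 10 at chr13:21234045-21279768 and chr6:48332840-48363603 had none. By chromosome, calls were most frequent on chromosome 10 (9 of 11, of which 7 were near a protein-coding end and 2 of 4 distant ones were called), chromosome 2 (6 of 8) and chromosome 11 (33 of 47, with 24 of the 47 near a protein-coding end). Chromosome 13, with the largest number of tRNA genes, had 36 of 105 called.

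Arrays differed as wholes. On chromosome 6, 48 cysteine genes in a stretch of 229.667 kb (chr6:48133937-48363603) had no summit within 1000 bp in either replicate. The nearest summit to any of them lay 47294 bp away in replicate 1 and 46506 bp in replicate 2. Of the 9 cysteine genes elsewhere, 3 were called. On chromosome 11, by contrast, 16 of 18 tRNA genes of 14 anticodons between 69037003 and 69125248 were called, and all 18 had a summit in replicate 2, although only 4 of the 18 were distant from protein-coding ends. The 3 clusters of this stretch held 2, 1 and 4 distinct peaks in replicate 1 and 2, 1 and 3 in replicate 2.

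A chromosome 1 array of 25 genes (chr1:171033942-171111515) showed a change within 77.574 kb. Its middle holds 3 units of 5 genes in the same order, glutamate CTC, glycine TCC, aspartate GTC, leucine CAG and glycine GCC, spaced 7628 and 7614 bp apart. None of these 15 genes was called, and 5 had a summit in replicate 2 alone. Of the 10 genes outside these units, 9 were called. All 5 anticodons of the units occurred again among them, in 8 genes, of which 7 were called. These genes share peaks, with 3 distinct peaks in each replicate before the units. After the units there were 3 in replicate 1 and 2 in replicate 2. On chromosome 13, 12 of 30 genes between 23425646 and 23530419 were called. How uniquely reads map to arrayed copies is not recorded in peak lists, and its part in these patterns was not tested.

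**Figure D5:**
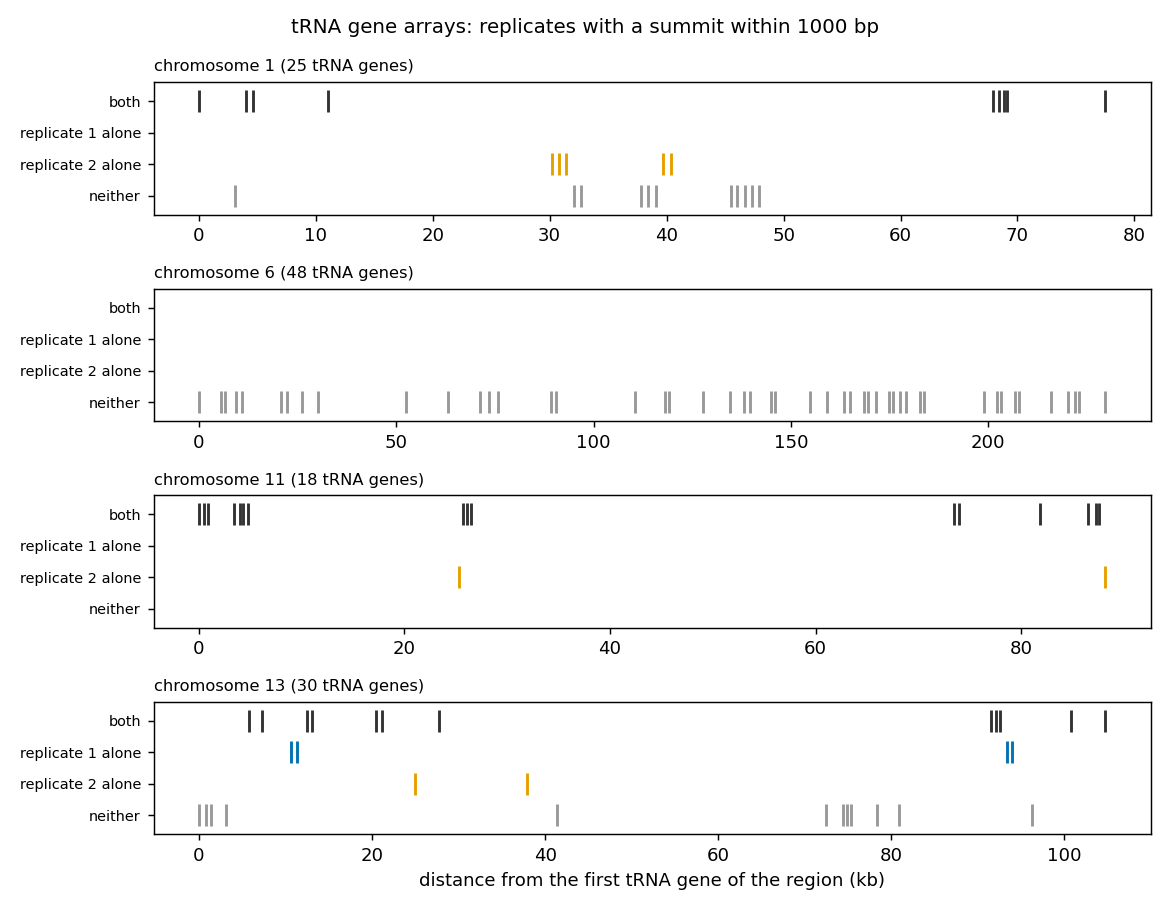
tRNA genes of 4 arrays as ticks by distance in kb from the first tRNA gene (x axis), in rows by whether a summit lay within 1000 bp in both replicates, in replicate 1 alone, in replicate 2 alone or in neither (y axis). All 48 genes of the chromosome 6 array are in the row for neither, and the chromosome 1 array has called genes on both sides of 15 uncalled ones.

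Of the 9 genes with a summit in replicate 1 alone, 6 had a replicate 2 summit within 2000 bp, and of the 31 with one in replicate 2 alone, 3 had a replicate 1 summit within 2000 bp. In replicate 1 alone the strongest were the lysine gene n-TKctt16 (fold enrichment 7.67, from the chromosome 3 peak described first), the valine gene n-TVcac7 (6.40) and the glutamine gene n-TQttg4 (5.97). Their nearest replicate 2 summits lay 1143, 1343 and 1715 bp away. Even so, n-TKctt16 and n-TQttg4 lay within replicate 2 peaks, those of n-THgtg8 and n-TGgcc6, and missed only the summit rule. In replicate 2 alone they were the lysine gene n-TKctt27 (11.1), the cysteine gene n-TCgca51 (9.57) and the aspartate gene n-TDgtc3 of the middle chromosome 1 units (8.50). Each lay near a protein-coding end, at 169 bp from Aloxe3, 28 bp from Lasp1 and 486 bp from Fcgr3. So did n-TVcac7, 343 bp from Trim41. The n-TKctt27 summit, at 69124220, was 956 bp from that gene and near the Hes7 end at 69124054. The n-TDgtc3 peak did not reach that gene, and its summit lay nearer n-TGtcc1 (215 bp) and n-TEctc5 (249 bp). The nearest replicate 1 summit was 1209 bp from n-TKctt27, 1227 bp from n-TCgca51 and 6105 bp from n-TDgtc3.

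Other transcripts of RNA polymerase III were examined by the same rule. Of 10 such genes that matched the table by symbol, apart from 5S copies, 9 were called in both replicates, and Rnu6, the entry for U6 spliceosomal RNA, had no summit in either. The share called in both was 21.9% over all genes other than tRNA genes and 4.06% over small RNA genes. The signal recognition particle RNA genes Rn7s2 (fold enrichment 8.34 in replicate 1 and 11.2 in replicate 2) and Rn7s1 (6.62 and 10.1, 109 bp from Rps29) ranked highest. They were followed by Rn7sk, the RNA that restrains the elongation factor P-TEFb (6.65 and 9.54, 3188 bp from the nearest protein-coding end), and Rpph1, the RNA of ribonuclease P, which trims the 5′ ends of tRNAs (7.67 and 9.13, 126 bp from Parp2). The Y RNA genes Rny1 and Rny3, the vault RNA gene Vaultrc5, Rmrp and Bc1 were the others. Rn7sk, Rn7s2, Vaultrc5, Rny1 and Rny3 lay more than 2000 bp from protein-coding ends. None of 64 entries named for 5S ribosomal RNA, 15 of them annotated as pseudogenes, was called in both, and n-R5s41 had a weak peak in replicate 2 alone (fold enrichment 2.92). Many of the 64 lie in an array on chromosome 8, between 123538784 and 123622046. How uniquely reads map to it was not tested.

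Protein-coding genes that make and process tRNAs were mostly called, read against the 33.7% of all protein-coding genes. Of 17 genes for initiation factors of RNA polymerase III and their repressor, 13 were called, led by the TATA-binding protein gene Tbp (7.18 and 8.77), the TFIIIB subunit gene Brf1 (5.99 and 8.50) and Maf1, the repressor of the polymerase (4.54 and 11.2). Of 15 genes for tRNA end processing and export, 12 were called, led by Rpp14 (4.49 and 7.70), Pop7 (4.24 and 13.2) and Rpp38 (4.10 and 7.44), all encoding subunits of ribonuclease P. Of 8 splicing and cleavage genes, 5 were called, led by Tsen34 (4.89 and 10.9), a subunit of the tRNA splicing endonuclease, the ribonuclease inhibitor gene Rnh1 (5.94 and 6.38) and the RNA kinase gene Clp1 (9.02 and 6.37). Of 34 tRNA modification genes that matched, 25 were called and 8 more had a summit in replicate 2 alone. Among the highest-ranked were the cytosine methyltransferase gene Nsun2 (5.93 and 12) and Thg1l (5 and 12). Nothing is read from these counts as particular to tRNA.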

How the data were processed

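Flag ChIP-seq was done with 2 ChIP and 2 input libraries. Libraries were made with a TruePrep kit, per the labels' protocols. The build was mm10, and Bowtie2, ChIPseeker, cutadapt, FastQC, MACS2 and Trimmomatic are named without version in the submitters' processing notes. The control and the cutoff of peak calling are not stated in the labels. Peaks were deposited by the authors for each ChIP library, with a fold enrichment (a linear ratio), −log10 p and −log10 q values, and a score, which was not used. Read depth is unknown, so no interval was given.

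A summit was the peak start plus the summit offset. Gene bounds came from the GRCm38.p6 table, and 363 rows of it on scaffolds, which repeat chromosome names, were dropped. Amino acid and anticodon were read from symbols, with n-Tcgca44 counted as cysteine. The selenocysteine tRNA is not analysed here. Fold enrichment was ranked within each list, over chromosomes 1 to 19, X and Y. Named genes were the 12 highest-ranked distant loci (1 gene per peak, nearest the summit), the 8 highest near ones, the top gene of each amino acid, the 3 strongest in each replicate alone and the top 3 of each list. One gene that this rule names is not reported here. The 5 largest clusters, 6 with a tie, were given as counts, and the arrays, other genes named as neighbours, n-R5s41 and the 27 protein-coding genes were described after values were seen. Members and lists were chosen with earlier results of these data known. Gene assignment was tested on simulated data. No test between groups was possible with 1 group of 2 libraries. Calculations used Python 3.11.15, numpy 2.4.6 and pandas 2.3.3.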

Additional observations from a re-analysis of the deposited data

How the results depend on the processing

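The 152 called tRNA genes and the 104 distant ones became 61 and 39 with fold enrichment of at least 5, 47 and 33 with summits within 200 bp, 97 and 63 when the peaks had to overlap by 50% of both, and 75 and 45 when each cluster was counted once (of 161 and 127 clusters). Distant genes numbered 43 of 205 beyond 10000 bp from protein-coding ends. Distinct peaks in replicate 1 fell to 44 with fold enrichment of at least 5 and to 73 within 200 bp. The median share called per amino acid, 43.3%, was 33.8% within 500 bp and 51.7% within 3000 bp. By a single replicate, 161 to 183 genes were called, and 112 to 128 distant ones, with median summit distances of 114.5 to 123 bp. Under the other alternatives run, including −log10 q of at least 5 (121 and 79) and lists of equal length (145 and 97), these counts stayed within 1.5 times. Per amino acid, called genes moved by more in 7 cases. Within 500 bp they were 1 for cysteine (3 in the report), 5 for glutamate (8), 4 for proline (7) and 5 for threonine (8), and within 3000 bp 8 for glutamine (4), 10 for lysine (5) and 8 for tyrosine (5). Leaving out cysteine genes, chosen after seeing the data, gave 149 and 103. Under every threshold, window and list setting tried, the share of distant tRNA genes called (10.3% to 39.9%) was above that of distant small RNA genes (0.409% to 4.74%). No paired analysis was possible because the input libraries entered no comparison. Depth is unknown, so absence of a peak is not absence of signal.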

Other observations

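On the X chromosome, outside the set described above, 17 tRNA genes were annotated and none had a summit within 1000 bp in either replicate.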
